A study of Mus musculus with 20 samples.

Results

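The 10 genes described here encode the inhibin and activin subunits (Inha, Inhba and Inhbb), the activin-binding proteins follistatin and follistatin-like 3 (Fst and Fstl3), the receptors Acvr1, Acvr1b, Acvr2a and Acvr2b, and the inhibin co-receptor Tgfbr3. They were selected by gene symbol among the 45777 genes in the expression table, and all 10 were above 0 in each of the 20 libraries. The family was picked because Inhbb had the largest rise between IF and control uteri in an earlier look at these libraries. Values of Inhbb in any comparison with IF or control mice are therefore a description without a test, and the other 9 members entered by name only, with results of these libraries already known.

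Uteri of mated wild-type B6D2F1 females aged 8 to 12 weeks were collected at 18:00 on day 3.5 post coitum, 1 library per mouse and 5 mice per group. The control mice received no RU486. The implantation failure (IF) mice received RU486, which blocks the progesterone and glucocorticoid receptors, at 3 mg/kg subcutaneously on the morning of day 3.5. The PBMC mice received the same RU486 dose after 50000 peripheral blood mononuclear cells per uterine horn on day 1.5, from cells cultured without human chorionic gonadotropin (hCG), and the PBMC-hCG mice received cells cultured with hCG at 5 IU/mL. No vehicle or sham injection is named for the control mice. The IF mice had no intrauterine injection, so the effect of the cells and of the injection cannot be told apart here, and a medium-only group was not analysed here.

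Activins are dimers of beta subunits, activin A of the Inhba product and activin B of the Inhbb product, whereas inhibins pair a beta subunit with the alpha subunit encoded by Inha. Activins bind the type II receptors encoded by Acvr2a and Acvr2b, which recruit the type I receptor encoded by Acvr1b and signal through SMAD2 and SMAD3. Follistatin and follistatin-like 3 bind activins and keep them from their receptors, and inhibins, held by the co-receptor betaglycan (Tgfbr3), compete for the type II receptors. In the uterus, activin signalling takes part in the preparation of the endometrium for implantation and in decidualization.

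Expression was given as TPM, a measure of transcript abundance that scales for gene length and library size, so levels of different genes in a library can be compared. The read depth behind the values is unknown because the table holds no counts, and no counting error can be given. Between 22702 and 24097 genes were above 0 per library. Fold changes below are differences of mean log2(TPM + 0.1) with their standard errors (SE), and adjusted p values are from limma over the 18706 genes above 0 in all libraries. A gene was called when its adjusted p was under 0.05. All 8 uterus identity markers were above 0 in every library. Of 12 ovary and oviduct markers, 3 (Fshr, Cyp19a1 and Zp3) were listed at 0 in all 20 libraries, 3 were at 0 in some, and 6 (Amh, Foxl2, Star, Cyp11a1, Gdf9 and Ovgp1) were above 0 in all. Control replicate 2 stood apart, with a summed level of 10 stromal markers of 6303 TPM against 10080 to 10673 TPM in the other control mice. A list of 8 progesterone-response genes served as a check of the RU486 label. Of the 7 tested between IF and control, 1 was called lower and none higher, with a median log2 difference of -0.32. A positive difference was found for 2 of the 7, and 8.53% of all genes were called lower. The list as a whole therefore did not settle the label. The gene called was Il13ra2, named after its values were seen, with 42.2 ± 9.99 TPM (SD, n = 5) in control and 2.22 ± 0.560 TPM in IF uteri (log2 difference -4.20, adjusted p = 2.84e-09). Of the genes fixed for naming, Ihh had 28.8 ± 18.7 TPM (SD, n = 5) in control and 36.9 ± 17.7 TPM in IF uteri (adjusted p = 0.569), Hand2 had 128 ± 41.4 and 104 ± 15.9 TPM (adjusted p = 0.252), and Areg, at 0 in some libraries, was not tested.

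Both activin beta subunit RNAs were higher in IF than in control uteri, and their levels after PBMC-hCG lay between those of the control and IF groups. Inhbb, the activin B subunit gene (chr1:119415463-119422248, GRCm38.p6), stood at 7.32, 31.7, 9.97, 11 and 22.5 TPM in control replicates 1 to 5. In the IF mice it stood at 376, 503, 423, 670 and 846 TPM. Every IF mouse lay above every control mouse, and the ratio of the group means, 564 ± 193 TPM (SD, n = 5) to 16.5 ± 10.3 TPM, was 34.2. By mean TPM, Inhbb ranked 8040 of 27340 genes in control uteri and 210 of 27329 genes in IF uteri.

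In the PBMC mice Inhbb stood at 142, 152, 246, 127 and 562 TPM. In the PBMC-hCG mice it stood at 398, 74.8, 58.4, 167 and 135 TPM. A single mouse in each of these groups, PBMC replicate 5 and PBMC-hCG replicate 1, reached the IF range, and the other 4 mice of each group lay below every IF mouse and above every control mouse. The means were 246 ± 183 TPM (SD, n = 5) in PBMC and 167 ± 136 TPM in PBMC-hCG uteri, at which 41.9% and 27.4% of the difference between the IF and control means was left. Between the PBMC-hCG and PBMC mice, a comparison that did not enter the choice of the gene, the log2 difference was -0.65 (SE 0.50, 95% interval -1.70 to 0.40, adjusted p = 0.482).

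Inhba, the activin A subunit gene (chr13:16004256-16031609), was expressed at a much lower level than Inhbb in every library. It stood at 0.639, 1.12, 0.771, 0.636 and 0.824 TPM in control replicates 1 to 5. The IF mice had 3.43, 6.84, 7.11, 3.06 and 8.20 TPM. The groups did not overlap, and Inhba rose by 2.62 on the log2 scale (SE 0.34, adjusted p = 2.3e-05), a 7.17-fold ratio of means.

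In the PBMC mice Inhba stood at 1.82, 2.28, 3.23, 2.27 and 8.50 TPM, and in the PBMC-hCG mice at 2.20, 1.87, 1.59, 2.31 and 1.77 TPM. All PBMC-hCG mice lay below all IF mice, whereas the PBMC mice overlapped the IF mice through replicates 3 and 5. Inhba fell by 1.41 on the log2 scale from IF to PBMC-hCG (SE 0.34, adjusted p = 0.0287), a call that was lost in 7 of 20 alternative fits, each of which left out a single mouse (IF replicate 2, 4 or 5, or PBMC-hCG replicate 2, 3, 4 or 5; adjusted p of 0.0543 to 0.0991). From IF to PBMC the difference of -0.78 (SE 0.34, adjusted p = 0.723) was not called. The levels in both cell-treated groups were above control, by 1.84 in PBMC (adjusted p = 0.000797) and by 1.20 in PBMC-hCG (adjusted p = 0.0115). With a pseudocount of 1 the latter was 0.71 (adjusted p = 0.0520) and was not called. These comparisons share the control mice with that of IF.

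**Figure D1:**
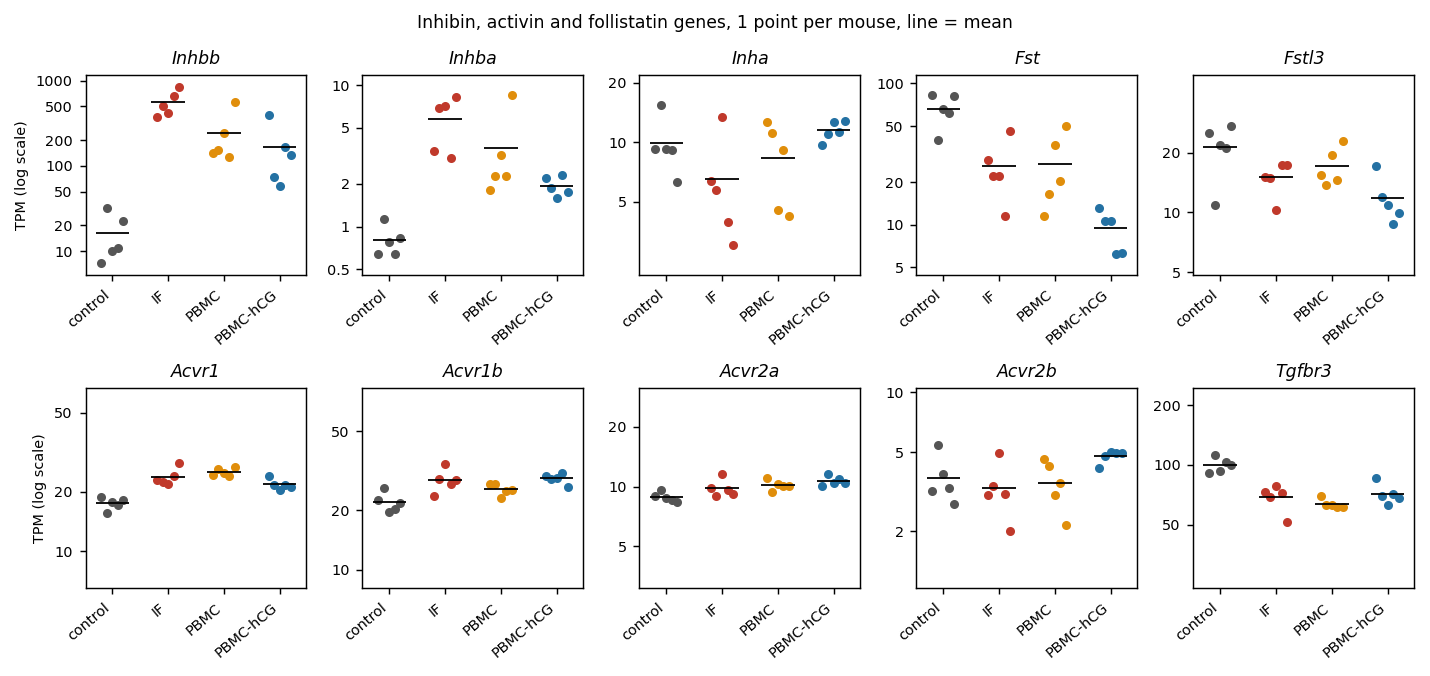
Level of each of the 10 genes in TPM (log axis, 1 panel per gene) by treatment group, with 1 point per mouse and a line at the mean of 5 mice. By group mean, Inhbb and Inhba lie highest in IF uteri and Fst lies lowest in PBMC-hCG uteri. Tgfbr3 lies below all control mice in each RU486 group.

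The promoter windows of the beta subunit genes are shown because both RNAs were higher in IF than in control uteri. Each is the 250 bases before the RefSeq start site, on the gene's strand, from GRCm38.p6, the assembly named mm10 in the processing notes. The Inhbb window lies at chr1:119422249-119422498 on the minus strand and the Inhba window at chr13:16011601-16011850 on the plus strand. RefSeq also places an earlier start in the Inhba gene, whose window is not shown.
Inhbb: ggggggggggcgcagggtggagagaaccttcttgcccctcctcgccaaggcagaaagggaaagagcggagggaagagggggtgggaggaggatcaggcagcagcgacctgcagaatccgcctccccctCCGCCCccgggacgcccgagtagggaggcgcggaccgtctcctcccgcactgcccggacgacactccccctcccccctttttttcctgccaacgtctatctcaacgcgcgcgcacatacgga
Inhba: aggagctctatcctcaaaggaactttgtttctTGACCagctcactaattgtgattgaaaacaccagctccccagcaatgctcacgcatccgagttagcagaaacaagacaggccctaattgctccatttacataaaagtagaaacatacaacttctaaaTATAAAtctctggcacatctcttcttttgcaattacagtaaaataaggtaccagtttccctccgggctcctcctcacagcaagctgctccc
Capitals mark matches to 5 motifs searched on both strands, which were the GC box GGGCGG, the estrogen response element half-site GGTCA, the glucocorticoid and progesterone response element half-site TGTTCT, the SMAD box CAGAC and the TATA box TATAAA. The Inhbb window held a GC box on its reverse strand, as did 32.7% of all 32851 windows on either strand, and no match to the other motifs. The Inhba window held GGTCA on its reverse strand, a match found in 35.2% of all windows, and TATAAA, found in 12.4%. TGTTCT and CAGAC, in 16.1% and 42.2% of all windows, had no match in either. A match is a run of letters in this window and not a measured binding site. Windows were at hand for 8 of the 10 members, without Fst and Tgfbr3.

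Inha, which encodes the alpha subunit that turns a beta subunit into an inhibin (chr1:75507077-75510366), was not called between IF and control. It stood at 9.22, 15.4, 9.21, 9.17 and 6.27 TPM in control and at 6.38, 5.77, 13.4, 3.96 and 3.05 TPM in IF replicates 1 to 5. The groups overlapped, with a log2 difference of -0.72 (SE 0.35, adjusted p = 0.154). Without IF replicate 3, the highest of its group, it was -1.02 (adjusted p = 0.0269).

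After cell treatment Inha stood at 12.7, 11.1, 4.58, 9.11 and 4.25 TPM in PBMC and at 9.65, 11, 12.7, 11.3 and 12.7 TPM in PBMC-hCG uteri. The 5 PBMC-hCG mice were close together, with 11.5 ± 1.28 TPM (SD, n = 5), and only IF replicate 3 exceeded them. The log2 difference from IF of 0.99 (SE 0.35, adjusted p = 0.0610) missed the threshold, and without IF replicate 3 it was 1.29 (adjusted p = 0.0125). Within each library, the summed TPM of Inhbb and Inhba was 0.863 to 3.71 times that of Inha in control, 32.1 to 280 times in IF, 11.3 to 134 times in PBMC and 4.74 to 41.4 times in PBMC-hCG mice. The control range lay below that of all 3 other groups, and Inhbb made up most of the summed beta subunits in every library. Inhbb was chosen for its rise from control to IF, so this separation is a description. With Inhba alone, the ratio to Inha was 0.0693 to 0.131 in control and 0.529 to 2.69 in IF mice. Its lowest value in PBMC mice was 0.144, and it was 0.126 to 0.228 in PBMC-hCG mice. The control range then lay below those of IF and PBMC but overlapped that of PBMC-hCG.

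Fst, the follistatin gene (chr13:114452262-114458989), changed in the opposite direction to the beta subunits with RU486, and it fell further with PBMC-hCG instead of returning towards control. It stood at 82.6, 40.001, 65.6, 61.8 and 81.1 TPM in control and at 28.8, 22.2, 22, 11.6 and 46.0 TPM in IF replicates 1 to 5. Only IF replicate 5 reached the lowest control mouse, replicate 2. Fst fell by 1.43 on the log2 scale (SE 0.38, adjusted p = 0.0101), and the call was kept in all 20 alternative fits, with an adjusted p of at most 0.0311.

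In the PBMC mice Fst stood at 11.6, 16.6, 36.8, 20.5 and 49.6 TPM, and in the PBMC-hCG mice at 13.2, 10.7, 10.7, 6.19 and 6.35 TPM. The PBMC mice spread over much the same range as the IF mice, with a log2 difference from IF of -0.01 (SE 0.38, 95% interval -0.80 to 0.78, adjusted p = 0.999). The PBMC-hCG mice lay below every control mouse, by 2.82 on average on the log2 scale (adjusted p = 3.1e-05), and overlapped the IF mice only through replicate 1. From IF to PBMC-hCG, Fst fell by 1.39 on the log2 scale (SE 0.38, adjusted p = 0.0324), a call lost without any of the same 7 mice and with no filter on low values (adjusted p of 0.0541 to 0.110). From PBMC to PBMC-hCG the difference of -1.38 (SE 0.38, 95% interval -2.16 to -0.59) had an adjusted p of 0.264.

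Fstl3 (chr10:79777274-79782630), whose product also binds activins, varied less. It stood at 25.1, 10.9, 21.8, 21.1 and 27.3 TPM in control, at 15.1, 14.9, 10.2, 17.3 and 17.4 TPM in IF, and at 17.2, 11.9, 10.9, 8.77 and 9.97 TPM in PBMC-hCG replicates 1 to 5. Control replicate 2 was the lowest of its group by a wide gap. The log2 difference of -0.46 between IF and control (SE 0.23, adjusted p = 0.169) was not called, and without control replicate 2 it was -0.68 (adjusted p = 0.0132). Fstl3 was lower in PBMC-hCG than in control uteri with a log2 difference of -0.82 (adjusted p = 0.0108), and in the PBMC mice, at 13.7 to 22.9 TPM, it was not called against control (-0.26, adjusted p = 0.468).

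Within a library, Fst exceeded Fstl3 by 2.92 to 3.68 times in all control mice, whereas Fst was below Fstl3 in all PBMC-hCG mice, at 0.638 to 0.985 times. The IF mice ranged from 0.671 to 2.64 times and the PBMC mice from 0.758 to 2.16 times. The summed beta subunits were at 0.0739 to 0.644 times the summed follistatins in control, 8.64 to 23.3 times in IF, 3.70 to 7.86 times in PBMC and 2.78 to 13.2 times in PBMC-hCG mice. The PBMC range lay within the PBMC-hCG range, although the mean Fst level was 27.0 ± 15.8 TPM (SD, n = 5) in PBMC and 9.43 ± 3.06 TPM in PBMC-hCG mice. These sums are mostly Inhbb, the gene chosen for its rise. With Inhba alone, the ratio to the summed follistatins was 0.00593 to 0.0221 in control and 0.0780 to 0.221 in IF mice. It was 0.0574 to 0.117 in PBMC and 0.0726 to 0.154 in PBMC-hCG mice. In both the IF and the PBMC group, replicate 5 had the highest Inhbb, Inhba and Fst. These are RNA levels, and no protein or dimer was measured.

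**Figure D2:**
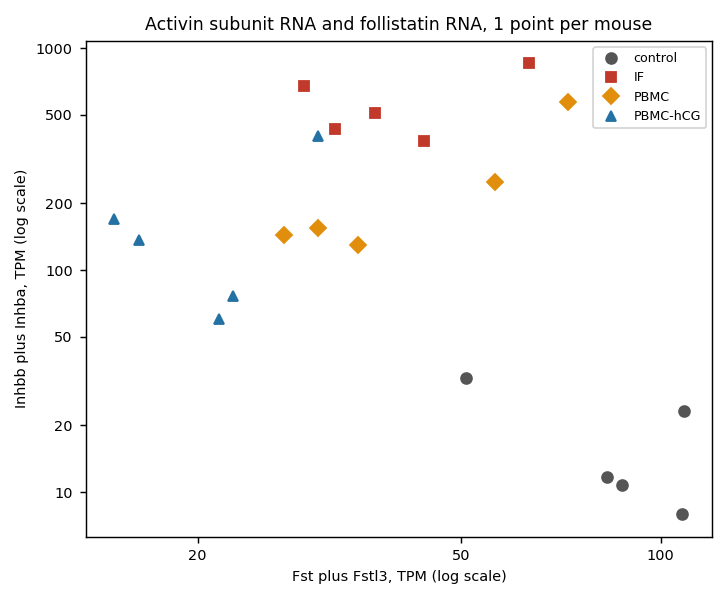
Summed TPM of Inhbb and Inhba (vertical, log axis) against summed TPM of Fst and Fstl3 (horizontal, log axis), 1 point per mouse in 4 groups of 5. All control mice lie below all others on the vertical axis, IF mice lie near the top, and 4 of the 5 PBMC-hCG mice lie furthest to the left, with replicate 1 near the IF mice. Inhbb, chosen for its rise from control to IF, makes up most of the vertical sum.

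Among the receptors, differences between IF and control uteri were small in size, and both type I receptor genes were called. Acvr1 (chr2:58446438-58566828), which encodes a type I receptor used mainly by bone morphogenetic proteins, stood at 18.9, 15.6, 17.7, 17.1 and 18.1 TPM in control and at 22.8, 22.4, 21.8, 24.0 and 27.9 TPM in IF mice. The groups did not overlap, and Acvr1 rose by 0.44 on the log2 scale (SE 0.07, adjusted p = 0.000162). It was also above control in PBMC (24.0 to 26.7 TPM, log2 difference 0.53, adjusted p = 3.5e-05) and PBMC-hCG mice (20.5 to 23.8 TPM, 0.32, adjusted p = 0.0022). All PBMC-hCG mice lay below all PBMC mice for Acvr1, although the difference of -0.21 (SE 0.07) had an adjusted p of 0.271.

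Acvr1b (chr15:101174072-101213684), the type I activin receptor gene, stood at 22.4, 25.7, 19.6, 20.2 and 21.7 TPM in control and at 23.6, 28.8, 34.0, 27.2 and 28.5 TPM in IF mice. The groups overlapped through IF replicate 1, and Acvr1b rose by 0.37 on the log2 scale (SE 0.09, adjusted p = 0.00514). It was higher than control in PBMC-hCG uteri too (26.2 to 30.9 TPM, log2 difference 0.40, adjusted p = 0.00195), and the PBMC difference of 0.22 (23.1 to 27.2 TPM, adjusted p = 0.0864) was not called.

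The type II receptor genes Acvr2a (chr2:48814109-48903264) and Acvr2b (chr9:119401583-119442148) were not called between IF and control. Acvr2a ranged from 8.34 to 9.58 TPM in control and from 8.95 to 11.6 TPM in IF mice (log2 difference 0.14, SE 0.08, adjusted p = 0.202), and it was higher in PBMC-hCG mice than in control, at 10.1 to 11.6 TPM (0.27, adjusted p = 0.0120). Acvr2b ranged from 2.73 to 5.42 TPM in control and from 2.0 to 4.96 TPM in IF mice (-0.18, SE 0.22, adjusted p = 0.621). In the PBMC-hCG mice Acvr2b was at 4.16 to 4.99 TPM, with a log2 difference from IF of 0.57 (SE 0.22, adjusted p = 0.0829) that was 0.73 without IF replicate 3 (adjusted p = 0.0227).

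Tgfbr3 (chr5:107106567-107289629), which encodes betaglycan, was the most abundant member in control uteri. It stood at 90.9, 113, 93.5, 103 and 100.5 TPM in control and at 73.0, 69.2, 78.1, 72.6 and 51.9 TPM in IF mice. The groups did not overlap, and Tgfbr3 fell by 0.55 on the log2 scale (SE 0.10, adjusted p = 0.000508). It was lower than control by a similar amount in the PBMC mice (61.1 to 70.1 TPM, log2 difference -0.65, adjusted p = 0.000123) and the PBMC-hCG mice (62.6 to 85.9 TPM, -0.49, adjusted p = 0.00105). The difference between PBMC-hCG and IF was 0.06 (SE 0.10, 95% interval -0.15 to 0.26, adjusted p = 0.701).

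**Figure D3:**
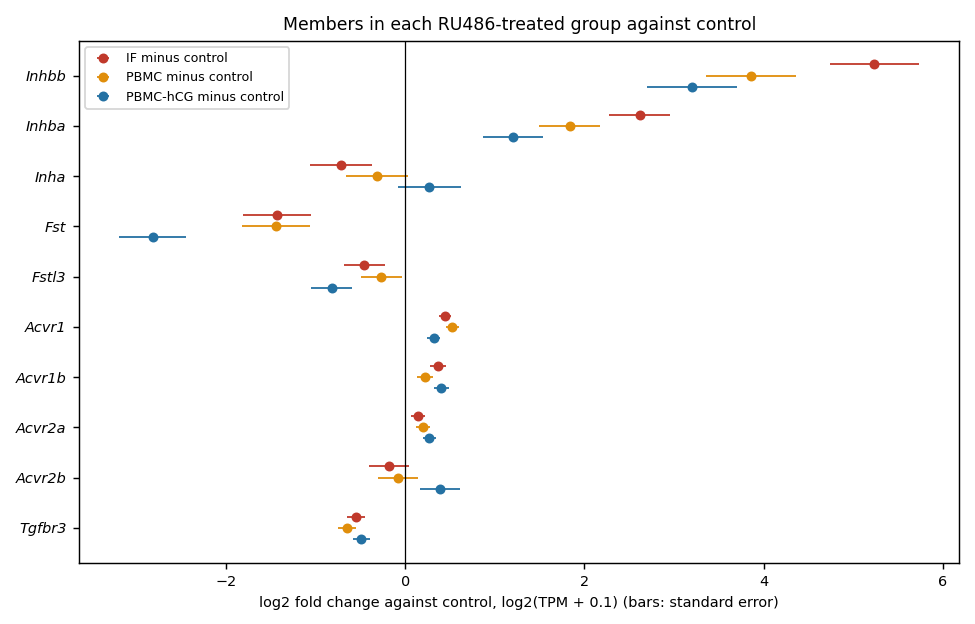
Log2 fold change of the 10 genes in the IF, PBMC and PBMC-hCG groups, each minus control, with bars for the standard error and 5 mice per group; the comparisons share the control mice. Inhbb (5.24, 3.86 and 3.2) and Inhba (2.62, 1.84 and 1.20) lie highest, and Fst lies at -1.43, -1.44 and -2.82.

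Of the 9 members tested between IF and control, 3 rose (Inhba, Acvr1 and Acvr1b), 2 fell (Fst and Tgfbr3) and 4 were not called. Over all genes tested, 21.9% were called, 13.4% higher and 8.53% lower. Of the 10 members, 4 (Inhbb, Inhba, Acvr1 and Tgfbr3) had no overlap between the groups, against 12.8% of all genes. Inhbb was chosen for its rise in this comparison, so its place in this count was fixed by that choice. Under the criteria of a fold change of at least 2 and an unadjusted p under 0.05, 2 members (Inhba and Fst) passed, against 4.03% of all genes. The family was selected with these results known, so the counts are a description.

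Against IF, 0 of 9 members were called in the PBMC mice by limma, where 0% of all genes were called. An unadjusted p under 0.05 was found for 1271 genes, 6.79% of all genes, Inhba among them. No member was without overlap between PBMC and IF mice, against 1.01% of all genes. In the PBMC-hCG mice 2 of 9 were called (Inhba and Fst, both lower), with 13.6% of all genes called, 7.61% higher and 5.99% lower. The count over all genes also rested on single mice. It was 2544 with all mice, 8, 14 and 0 without IF replicate 2, 4 or 5, 1, 0, 18 and 34 without PBMC-hCG replicate 2, 3, 4 or 5, 5061 without IF replicate 3, 4166 without PBMC-hCG replicate 1 and 4080 without control replicate 2. One member, Inhba, had no overlap between PBMC-hCG and IF mice, against 7.24% of all genes. Both comparisons use the same IF mice. Between PBMC-hCG and PBMC mice 0 of 10 members were called by limma, with 0.0107% of all genes called and 3024 genes (16.2%) at an unadjusted p under 0.05. Fst passed the fold criteria there (0.893% of all genes) and Acvr1 had no overlap (3.46%). Against control, 4 of 9 were called in PBMC mice, Inhba and Acvr1 higher and Fst and Tgfbr3 lower (19.5% of all genes, 12.8% higher and 6.7% lower). In PBMC-hCG mice 7 of 9 were called, Inhba, Acvr1, Acvr1b and Acvr2a higher and Fst, Fstl3 and Tgfbr3 lower (31.8% of all genes, 20.2% higher and 11.6% lower). Inhba and Fst passed the fold criteria in both (3.34% and 4.74% of all genes), and 4 and 7 members had no overlap with control (12.7% and 18.3%). Both of the latter counts include Inhbb, which was chosen for its rise from control to IF.

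The levels of cell type markers also differed between the groups. Between IF and control uteri, 6 of 10 epithelial markers were higher and 2 lower (summed level 934 to 1412 TPM in control and 1136 to 1519 TPM in IF mice), and 7 of 8 endothelial markers were higher (453 to 563 and 624 to 714 TPM). The summed stromal markers were at 6303 to 10673 TPM in control and 10485 to 12704 TPM in IF mice, with 3 of 10 called higher and 2 lower. The myometrial markers were at 6713 to 12042 and 6741 to 8137 TPM, with 2 of 10 called lower and none higher. The leukocyte markers were at 655 to 869 and 644 to 921 TPM. The summed ovary and oviduct markers were at 43.5 to 51.3 TPM in control and 67.4 to 111 TPM in IF mice. Within that sum Foxl2, a gene that the uterus also expresses, had a mean of 21.1 TPM in control and 67.8 TPM in IF mice, the oviduct gene Ovgp1 had 21.4 and 12.2 TPM, and the oocyte gene Gdf9 was at 0.955 to 2.92 TPM over all libraries. Between PBMC-hCG and control uteri, 8 of 8 endothelial markers were higher (715 to 831 TPM in PBMC-hCG mice), 6 of 10 myometrial markers were lower (5443 to 6925 TPM), 5 of 10 epithelial markers were higher and 2 lower (1232 to 1650 TPM), and 3 of 10 stromal markers were higher and 3 lower (10955 to 12445 TPM). Between PBMC and control uteri, 6 of 8 endothelial markers were higher (623 to 748 TPM), 6 of 10 epithelial markers were higher and 1 lower (1221 to 1451 TPM), 4 of 10 stromal markers were higher and 3 lower (11099 to 13032 TPM), and no myometrial marker was called (6500 to 8011 TPM). Over all genes, 13.4% were higher and 8.53% lower in IF than in control uteri. The shares were 12.8% and 6.7% in PBMC and 20.2% and 11.6% in PBMC-hCG uteri. Of 11 leukocyte markers tested against control, 3 were higher in IF, 2 in PBMC and 4 in PBMC-hCG mice, and none was lower. The summed leukocyte markers were at 723 to 809 TPM in PBMC and 723 to 996 TPM in PBMC-hCG mice. Between PBMC-hCG and IF uteri, 2 of 10 stromal, 1 of 10 epithelial and 1 of 8 endothelial markers were higher and none lower. No myometrial or leukocyte marker was called there, and 7.61% of all genes were higher and 5.99% lower. The part of these markers in the results was not tested. In whole uterus, fewer cells of a type and less RNA per cell cannot be told apart.

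Other genes of the activin and related pathways were described from lists of 66 genes, of which 52 were above 0 in all libraries. Between IF and control, 24 were higher, 5 lower and 23 not called (21.9% of all genes were called), with a median log2 difference of 0.25 against 0.02 over all genes tested. Among the SMAD genes, which encode the intracellular mediators and the inhibitory SMADs, 6 of 8 were higher and 1 lower. Those higher were the activin mediator gene Smad3, the common partner Smad4, the bone morphogenetic protein mediators Smad1 and Smad5, and the inhibitory Smad6 (9.66 to 13.7 TPM) and Smad7 (7.76 to 13.7 TPM). Smad9, another bone morphogenetic protein mediator, was lower (-0.91, adjusted p = 0.0058), at low means of 1.24 TPM in control and 0.649 TPM in IF mice. The other activin mediator, Smad2, was not called, at 10.6 and 10.98 TPM. Among other receptors and co-receptors 5 of 9 were higher and 1 lower, with the endothelial co-receptor Eng at 104 TPM in control and 231 TPM in IF (1.15 on the log2 scale).

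Over all genes, 13.4% were higher and 8.53% lower in IF than in control uteri. Of the 13 intracellular regulators tested, 7 were higher and none lower. Pmepa1, an inhibitor of SMAD2 and SMAD3 signalling, rose from 11.8 to 38.5 TPM (log2 difference 1.62, SE 0.27) and Skil, which encodes a SMAD corepressor, from 12.2 to 23.6 TPM (0.94, SE 0.15). Ski, which encodes a related corepressor, had means of 56.6 and 59.0 TPM and was not called. The matrix gene Tgfbi rose by 0.97 (SE 0.20) and the ligand gene Bmp7 by 0.91 (SE 0.22). Of the 4 proprotein convertases, which cleave precursors of this ligand family, 3 were higher, Pcsk6 by 0.99 (SE 0.34) the most, and Pcsk5 fell by 1.97 (SE 0.26), from 78.5 to 19.8 TPM. Of the other binding proteins and antagonists, 2 of 7 were lower and none higher. The remaining lists held 1 of 6 related ligands and 5 of 10 SMAD2 and SMAD3 feedback and target genes higher and none lower. The 14 genes that were not tested, among them Nodal, Acvr1c and Inhbc, reached at most 0.521 TPM.

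In PBMC-hCG against IF uteri, 2 of 52 pathway genes were higher and 5 lower. Both directions together, the share was like that of all genes (13.6%), of which 7.61% were higher and 5.99% lower. The median was -0.02 against 0.05 over all genes. By limma, 0 of 52 were called in PBMC against IF or in PBMC-hCG against PBMC. Pmepa1 fell by 1.15 (SE 0.27), the cell cycle inhibitor Cdkn1a by 0.64 (SE 0.18), Skil by 0.51 (SE 0.15), Eng by 0.51 (SE 0.15) and the convertase Furin by 0.25 (SE 0.07). Smad9 rose by 1.12 (SE 0.22), at low means of 0.649 TPM in IF and 1.45 TPM in PBMC-hCG mice, and the ligand gene Gdf11 by 0.43 (SE 0.13). The call count depended on single mice, and was 0 without IF replicate 2, 4 or 5 or without PBMC-hCG replicate 2, 3, 4 or 5, and 15 without IF replicate 3. The count of calls over all genes also fell or rose when these mice were left out.

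**Figure D4:**
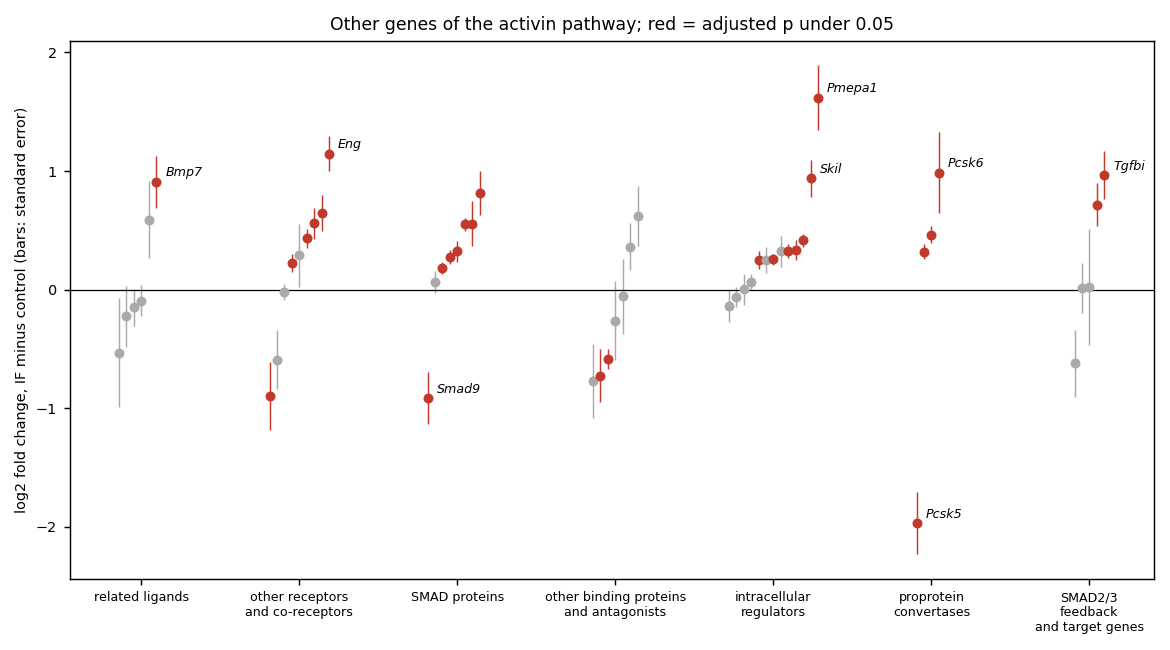
Log2 fold change, IF minus control, of 52 pathway genes, each plotted once under the first of 7 lists that holds it, with bars for the standard error and 5 mice per group; red points had an adjusted p under 0.05. Pmepa1 (1.62) is the highest and Pcsk5 (-1.97) the lowest.

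Genes with a pattern most like that of Inhbb over the 20 libraries were ranked by the root mean square difference of z-scored log2 values among 15770 genes with a mean of at least 1 TPM. The median over all these genes was 1.39. The nearest were the oxytocin receptor gene Oxtr (0.224), the growth factor gene Nrg1 (0.240), the transcription factor gene Foxo1 (0.242), Gm41934 (0.254), the phospholipase gene Ddhd1 (0.257) and the receptor activity-modifying protein gene Ramp3 (0.260). Oxtr had means of 9.83, 149, 73.8 and 38.4 TPM in control, IF, PBMC and PBMC-hCG uteri, an order shared with Inhbb. Inhba was at rank 59 (0.405) and Acvr1 at rank 348. The genes nearest to the mirror image of Inhbb were D630045J12Rik (0.294), Dhodh (0.303) and Cdca7l (0.317), and Tgfbr3 was at mirror rank 879 (0.790). The points share the libraries and their groups, and the measure is a description.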

How the data were processed

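Bulk RNA-seq of 1 uterine horn per mouse was analysed in 20 libraries. The deposited values were TPM, which the authors made with Trimmomatic, HISAT2 and StringTie on mm10; versions and gene annotation are not given in the sources used here. Column totals were 999989 to 999999 TPM, and depth is unknown. Because the table holds no counts, the count test of the study was not repeated, and log2(TPM + 0.1) of the 18706 genes above 0 in all libraries was fitted with limma 3.58.1 in R 4.3.3 (4 group means, mean-variance trend, two-sided moderated test, Benjamini-Hochberg adjustment within a comparison), and genes at an adjusted p under 0.05 were called. The script was tested on simulated data. Groups came from the sample labels, and each replicate was a separate mouse. The 10 members and all gene lists were chosen with earlier results of these data known.

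All members were named, with up to 8 called pathway genes per comparison by absolute fold change (mean of at least 1 TPM), the 6 genes most like Inhbb and the 3 most like its mirror image. Promoters were RefSeq windows of 250 bases (8 of 10 members, 32851 searched). Replicate numbers were shared between groups without any stated pairing, and the correlation of deviations of same-numbered mice was over 0.1 in 8 of 30 pairs. Alternatives were pseudocounts of 0.01 and 1, other filters, quantile and median scaling, no variance trend, fits of 2 groups, array weights, a replicate block, the study's criteria, and leaving out each mouse.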

Additional observations from a re-analysis of the deposited data

Results flagged for a closer look

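Of 40 combinations of gene and group, 4 held a mouse whose gap to the nearest other mouse, divided by the range of the group, was above 0.71. This is the critical value for 5 mice, and chance gives it in about 1 in 20 groups of normally distributed values. The gaps were taken on TPM and not on the log2 scale of the fits, so a flag can depend on the scale. Inhbb was at 562 TPM in PBMC replicate 5, against 127 to 246 TPM in the other PBMC mice. Inhba was at 8.50 TPM in the same mouse, against 1.82 to 3.23 TPM in the others. Acvr2b was at 4.16 TPM in PBMC-hCG replicate 1, against 4.8 to 4.99 TPM in the others. Tgfbr3 was at 70.1 TPM in PBMC replicate 1, against 61.1 to 63.2 TPM in the others.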

How the results depend on the processing

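The IF minus control calls of Inhba, Fst, Acvr1, Acvr1b and Tgfbr3 held in all 20 alternative fits, with adjusted p values of at most 0.000419, 0.0311, 0.00732, 0.0439 and 0.00842. The PBMC-hCG minus IF calls were the least stable. Members called there ranged from 0 to 4 when each mouse was left out (2 with all mice; 0 without IF replicate 2, 4 or 5 or PBMC-hCG replicate 2, 3, 4 or 5; 4 without IF replicate 3) and pathway genes from 0 to 15 (7 with all mice). With no filter on low values these counts were 1 and 2, and with array weights 6 and 23. Array weights called 3 members and 5 pathway genes in PBMC-hCG minus PBMC (0 and 0 without weights) and 7 members in PBMC minus control (4 without). Over all genes, array weights raised the calls in these comparisons from 2544 to 8078, from 2 to 1461 and from 3653 to 6814. The study's criteria passed 2 members in IF minus control, 1 (Fst) in PBMC-hCG minus PBMC, 2 in PBMC minus control and 2 in PBMC-hCG minus control. Leaving out each mouse gave 5 to 6, 4 to 6 and 7 members in the comparisons of IF, PBMC and PBMC-hCG with control. The sign of small differences changed. Acvr1b in PBMC-hCG minus IF was -0.026 with median scaling and -0.029 to 0.10 without single mice, Tgfbr3 was -0.00278 with median scaling, -0.012 with array weights and -0.040 to 0.11 without single mice, and Acvr2b in PBMC minus control was 0.12 with array weights and -0.20 to 0.074 without single mice. Without single mice, PBMC minus IF was -0.28 to 0.24 for Fst and -0.063 to 0.26 for Acvr2b. With a pseudocount of 1, Inhba in PBMC-hCG minus control was 0.71 (adjusted p = 0.0520). The share of higher genes among all calls was 55.9% in PBMC-hCG minus IF and 39.4% with median scaling, and 61.1% in IF minus control and 50.8% with quantile scaling. The cause of these changes was not tested. No pairing of the mice by replicate number is stated. The correlation of deviations of same-numbered mice ranged from -0.25 to 0.46, highest between replicate 5 of IF and of PBMC. A replicate block called 5 members in IF minus control, 2 in PBMC-hCG minus IF and 0 in PBMC minus IF, the same counts as without it. Over all genes in PBMC-hCG minus IF it called 3215, against 2544 without it. TPM carries no depth, so the counting error of low genes such as Inhba is not known.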
